A study of Mus musculus with 30 samples.

Results

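Formative and primed state genes were followed across 30 bulk RNA-seq libraries of mouse embryonic stem cells (mESCs). The genes are Otx2, Pou3f1, Zic2, Sall2, Foxd3, Sox3 and Fgf5. They were chosen by symbol: the identifier of each row in the count table was looked up in GENCODE M21, and 7 of 55421 rows carried these names. All 7 passed the filter on low counts, a mean of at least 10 counts over the 30 libraries, as did 15585 genes in all. The rule itself uses no measured value, but the members and the gene lists below were chosen with earlier results of these data known.

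Naive mESCs correspond to the epiblast before implantation. On their way to lineage commitment they pass through a formative and then a primed state. In this course naive factors such as Klf4 and Prdm14 are switched off and factors of the implanted epiblast are switched on. Otx2 is a homeodomain factor that redirects Oct4 to new enhancers in this transition, Pou3f1 (Oct6) is a POU factor of the same stage, and Zic2, Sall2, Foxd3 and Sox3 encode zinc finger, forkhead and SOX factors of the epiblast. Fgf5 encodes a secreted fibroblast growth factor and is the classical marker of the implanted epiblast. Female mESCs with both X chromosomes active are known to hold the naive state more firmly than cells with a single X, so that a series with lost X segments bears on these genes.

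All cells came from female 129/Sv × Cast/Ei F1 mESCs, which carry 1 X chromosome of each strain, and were grown on mouse embryonic fibroblast feeders in serum and LIF medium, with feeders removed by pre-plating before lysis. The groups of 2 libraries were XX Wildtype, XX Rnf12+/- (a deletion of the X-linked ubiquitin ligase gene Rnf12 on the 129 X, made in separate lines), XCastO129 (only the Cast X kept) and X129OCast (only the 129 X kept). The 13 deletion lines all had the genotype Rnf12 +/- and a heterozygous deletion of a segment of the X chromosome: 4 lines (A, AB, B and C-G) had 1 library, and the 9 others (C, D, E, F, H, I, I-TEL, J and K) had 2, from separate clones. Each deletion or XO line is a clone that went through guide RNA transfection, drug selection and single-cell outgrowth. Deletions AB, C-G and I-TEL are larger losses found among such clones. Deletions J and I-TEL were made in a second Rnf12+/- parental line, derived separately with other guides, and the other deletions in the first, so that for J and I-TEL the deletion and the parental line cannot be told apart. Which parental line the XX Rnf12+/- libraries came from is not given by the labels. The XO lines lost a whole X chromosome during the same work.

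Library batch, as the library names give it, followed the groups: XX Wildtype, XX Rnf12+/- and Deletion E formed a batch of 6 libraries with 20375194 to 21181405 counts, the other 12 deletion lines a batch of 20 libraries with 8816184 to 10680026 counts, and the XO lines a batch of 4 libraries with 14998265 to 16494893 counts. Reads were paired and 50 bases long, except in the XO libraries, which had single reads. Loss of an X chromosome and the library batch with its read type therefore cannot be told apart in this series, whereas the 12 lines of the larger batch can be compared within it. Deletion of Rnf12 was visible in its reads (gene symbol Rlim): 48.2% and 48.3% of allelic reads were 129 reads in XX Wildtype, against 0 to 6.64% in the 24 libraries of XX Rnf12+/- and the deletion lines. The level was 71.2 and 77.8 TPM (the share of transcripts, on a common scale that takes account of gene length) in XCastO129 but 3.53 TPM in both X129OCast libraries, whose remaining X is the one with the deletion, so that the XO lines also differed in Rnf12.

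Levels are given in TPM, which correct the counts for exon length and library size, so that genes can be set against one another. Differences between groups are log2 fold changes from edgeR's quasi-likelihood test on counts with their standard error (SE), set per gene copy, and a gene was called at a Benjamini-Hochberg adjusted p under 0.05 among the 15585 genes tested. In these bulk libraries a smaller share of cells expressing a gene and less RNA per cell cannot be told apart. Otx2 overlaps the antisense gene Otx2os1 and the sense gene Gm49154, Pou3f1 the antisense gene Gm2164, and Foxd3 contains Gm23366. Reads were counted by strand, which separates the antisense genes, whereas reads of genes that overlap on the same strand may not be told apart. Embryonic stem cell markers (Pou5f1 and 5 others) summed to 8063 to 14260 TPM in the 30 libraries. The 10 feeder fibroblast markers summed to 70.9 to 345 TPM and none of them was at 0 in any library.

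Across all libraries Zic2 and Otx2 were the most abundant members with medians of 72.8 and 74.1 TPM, followed by Foxd3 at 40.8, Sox3 at 21.5, Pou3f1 at 13.9, Fgf5 at 9.03 and Sall2 at 6.25 TPM. Zic2 and Otx2 overlapped over most of their range. Fgf5 had by far the widest range, from 0.528 TPM (4 counts) in Deletion I replicate 1 to 50.2 TPM (764 counts) in Deletion E replicate 2, which is 95.2-fold. The other members spanned 3.51-fold (Foxd3) to 11.2-fold (Sall2).

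**Figure D1:**
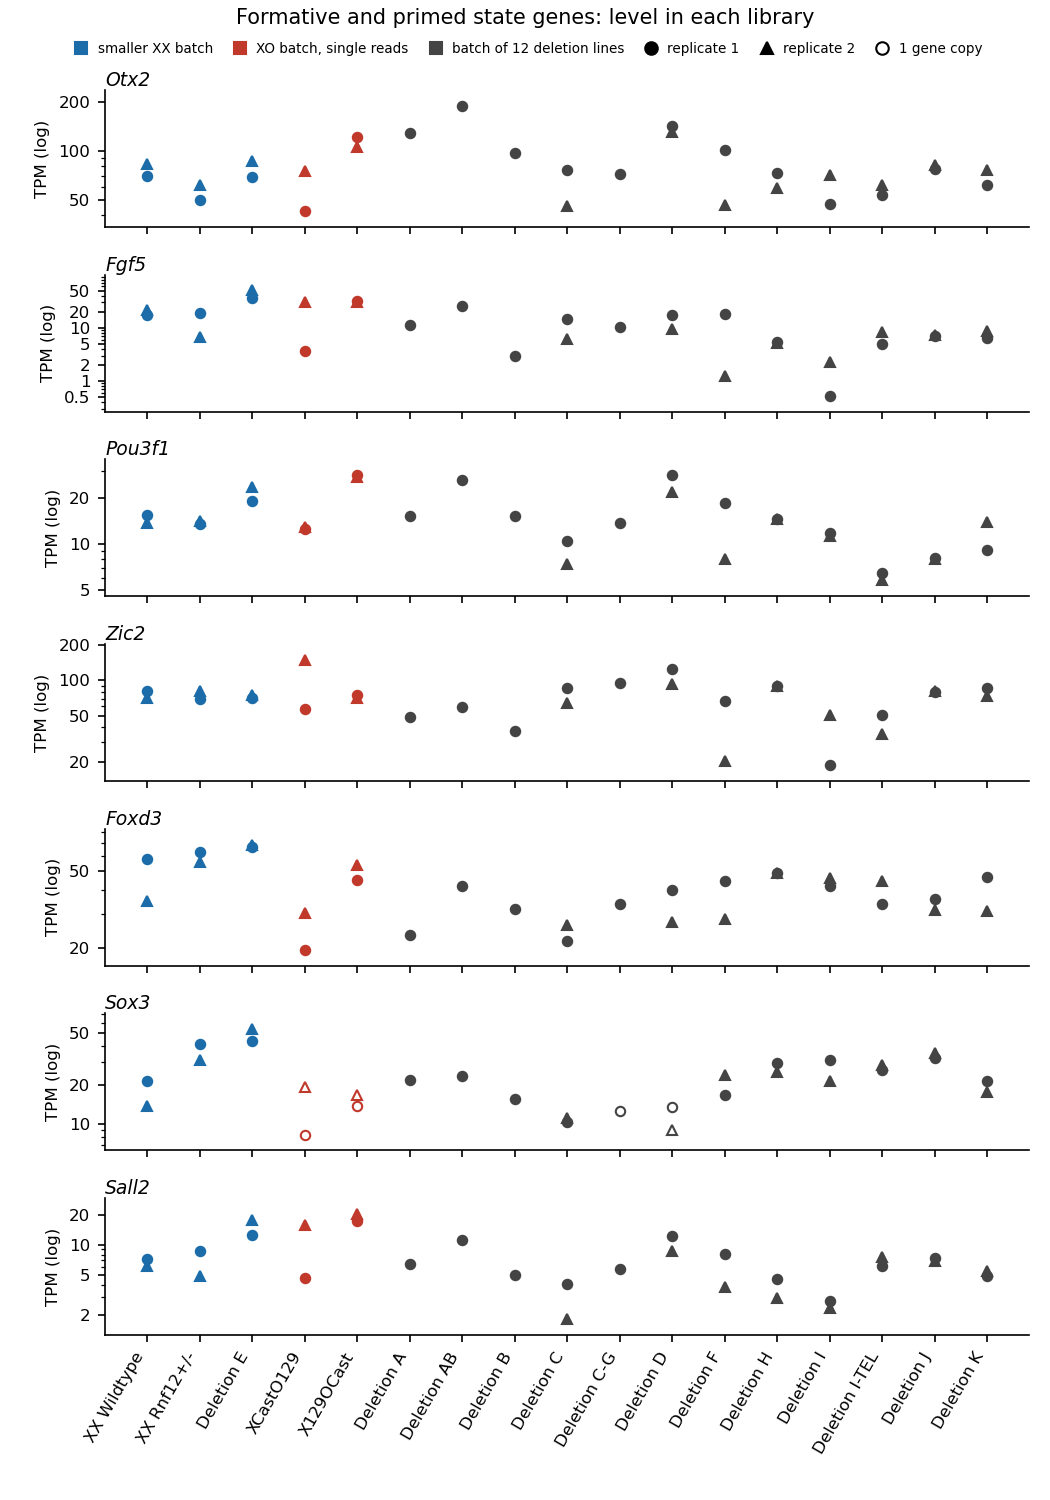
Level of each gene in TPM (log axis) in each of the 30 libraries, with circles for replicate 1, triangles for replicate 2, colours for the library batch and open symbols where Sox3 has 1 copy. Fgf5 ranged from 0.528 to 50.2 TPM, and the replicates of XCastO129, Deletion F and Deletion I lay far apart for several genes.

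The RefSeq promoter table for GRCm38.p6 (250 bases before to 50 bases after a start) held windows for 4 of the 7 genes, 8 windows in all: 4 for Otx2, 2 for Sall2 and 1 each for Fgf5 and Foxd3. Zic2, Pou3f1 and Sox3 had no entry. Windows of 3 members are shown as examples. Over the libraries of the larger batch the levels of Otx2 and Fgf5 were correlated (r = 0.68), whereas Foxd3 varied apart from them. Pou3f1 and Sall2 were closer to Otx2, and Fgf5 did not pass the test for a difference among the lines. Of the Otx2 windows, the one with a TAATCC match is shown. TAATCC, the core that homeodomain factors of the Otx2 type bind, and the TATA-like word TATAAA were searched on both strands, and matches are in capitals. The windows lie at chr14:48665060-48665359 on the minus strand (Otx2), chr5:98253934-98254233 on the plus strand (Fgf5) and chr4:99656049-99656348 on the plus strand (Foxd3).
Otx2: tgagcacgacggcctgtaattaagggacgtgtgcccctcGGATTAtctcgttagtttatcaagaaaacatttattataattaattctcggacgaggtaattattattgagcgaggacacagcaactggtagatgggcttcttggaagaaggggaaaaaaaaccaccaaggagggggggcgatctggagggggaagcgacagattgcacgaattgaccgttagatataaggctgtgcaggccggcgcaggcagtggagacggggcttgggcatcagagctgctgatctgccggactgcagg
Fgf5: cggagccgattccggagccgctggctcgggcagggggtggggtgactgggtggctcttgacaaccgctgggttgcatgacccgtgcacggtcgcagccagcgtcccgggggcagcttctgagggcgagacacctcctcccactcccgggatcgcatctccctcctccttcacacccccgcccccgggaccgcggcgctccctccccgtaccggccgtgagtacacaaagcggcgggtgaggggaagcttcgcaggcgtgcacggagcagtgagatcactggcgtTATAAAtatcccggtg
Foxd3: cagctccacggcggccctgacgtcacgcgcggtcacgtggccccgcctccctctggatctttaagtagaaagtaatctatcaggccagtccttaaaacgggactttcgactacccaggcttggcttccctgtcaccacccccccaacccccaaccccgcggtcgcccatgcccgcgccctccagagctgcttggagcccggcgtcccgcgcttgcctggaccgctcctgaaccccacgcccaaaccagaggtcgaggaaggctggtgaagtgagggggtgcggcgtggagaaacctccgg
TAATCC on either strand was present in 1 of the 4 Otx2 windows, the one shown (as GGATTA), and in none of the windows of Fgf5, Foxd3 and Sall2; 7.1% of all 32851 windows held it. TATAAA lay in the Fgf5 window shown, in 1 Otx2 window and in 1 Sall2 window, and in 13.6% of all windows. The Fgf5 match lies within the 50 bases after the start, and the search did not take position into account. The Fgf5 and Foxd3 windows were rich in CpG, with 29 and 25 CpG and 68.3% and 65.7% GC, against medians of 7 CpG and 52.7% GC over all windows; the Otx2 window shown had 16 CpG and 51.0% GC.

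The first comparison asked whether the heterozygous Rnf12 deletion, shared by all deletion lines, was itself associated with a change. None of the 7 genes was called between XX Rnf12+/- and XX Wildtype in edgeR on these 4 libraries, and DESeq2 called none either. In edgeR a log2 fold change beyond 1 was also required, and 2 genes had an unadjusted p under 0.05. Over all genes 1 of 15585 was called, or 0.00642%. Sox3 had the largest difference: its level was 21.3 and 13.9 TPM in XX Wildtype and 41.0 and 31.0 TPM in XX Rnf12+/-. The groups did not overlap, and the log2 difference was 1.06 (SE 0.28, adjusted p = 0.408, edgeR). Sox3 was called when a replicate block was added (adjusted p = 0.000693, edgeR), although the labels do not say that a number pairs libraries. Deviations of same-numbered libraries had a correlation of 0.68 between these groups, and 2 libraries per group cannot settle whether they are paired. Otx2 had 70.3 and 82.8 TPM in XX Wildtype and 49.7 and 61.2 TPM in XX Rnf12+/-, a log2 difference of -0.44 (SE 0.15, adjusted p = 0.518, edgeR). Under an alternative setting Otx2 passed the threshold on adjusted p, and only the required fold change kept it from being called. Fgf5 differed more within a genotype than between them, with 19.0 and 6.65 TPM in the XX Rnf12+/- libraries. Feeder markers also differed within both genotypes: they summed to 273 and 103 TPM in XX Wildtype and to 330 and 106 TPM in XX Rnf12+/-, and their part in the differences was not tested.

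In Deletion E, which was sequenced in the same batch as its reference XX Rnf12+/-, all members except Zic2 had a higher mean and none passed the test. edgeR called 21 of 15585 genes in this comparison (0.135%), 3 of the 7 members had an unadjusted p under 0.05, and DESeq2 called no member. Fgf5 was at 36.4 and 50.2 TPM against 19.0 and 6.65 TPM in XX Rnf12+/-, above both reference libraries, with a log2 difference of 1.70 (SE 0.74, adjusted p = 0.369, edgeR). Sall2 was at 12.4 and 17.6 TPM against 8.69 and 4.92 TPM, and Pou3f1 at 19.2 and 23.7 TPM against 13.5 and 14.2 TPM. Their log2 differences were 1.08 (SE 0.42) and 0.58 (SE 0.26), with adjusted p-values of 0.305 and 0.379 (edgeR). Deletion E replicate 2 also held the highest sum of feeder markers of all libraries, 345 TPM, and replicate 1 held 228 TPM.

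The XO lines were compared with XX Rnf12+/- to see how the formative genes stood after loss of a whole X chromosome. In X129OCast, 3 of the 7 genes rose and none fell, among 7566 genes called in all (48.5%); in XCastO129, 1 fell and none rose, among 5612 genes called (36%). The members were called no more often than all genes, so that their count is not in itself a result about them. Both comparisons share the reference libraries, and batch and read type moved with both.

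Otx2 was at 121 and 105 TPM in X129OCast, above the 49.7 and 61.2 TPM of XX Rnf12+/-, a log2 difference of 1.18 (SE 0.30, adjusted p = 0.00354, edgeR). Pou3f1 was at 28.4 and 27.5 TPM against 13.5 and 14.2 TPM, a log2 difference of 1.16 (SE 0.26, adjusted p = 0.0012, edgeR). Sall2 was at 17.3 and 20.3 TPM against 8.69 and 4.92 TPM, a log2 difference of 1.62 (SE 0.42, adjusted p = 0.00419, edgeR). In each of these genes both X129OCast libraries lay above both XX Rnf12+/- libraries. The call for Sall2 was lost without XX Rnf12+/- replicate 2 (log2 difference 1.26, adjusted p = 0.0513, edgeR). Fgf5 was at 32.0 and 30.5 TPM, also above both reference libraries, but did not pass the test (log2 difference 1.43, SE 0.75, adjusted p = 0.12, edgeR).

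In XCastO129 the replicate libraries stood far apart. Fgf5 was at 3.65 TPM in replicate 1 and 30.1 TPM in replicate 2, Sall2 at 4.67 and 15.6 TPM, and Zic2 at 56.9 and 150 TPM. Otx2 was at 42.5 and 75.3 TPM, and Sox3 at 8.35 and 19.3 TPM. Replicate 2 was thus at or near X129OCast for Fgf5 and Sall2, and replicate 1 at or under XX Rnf12+/-. Feeder markers summed to 122 TPM in replicate 1 and 236 TPM in replicate 2. With replicate 1 left out, Sall2 was called higher than in XX Rnf12+/- (log2 difference 1.30, adjusted p = 0.0164, edgeR). With replicate 2 left out, the log2 differences of Otx2, Fgf5, Zic2 and Sall2 turned negative, at -0.28, -1.71, -0.31 and -0.44, and Sox3 was called lower (-1.01 per copy, adjusted p = 0.0242, edgeR). Pou3f1 was alike in both replicates, with 12.6 and 13.0 TPM, and near the 13.5 and 14.2 TPM of XX Rnf12+/-.

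Foxd3 was the member that fell in XCastO129. It was at 19.6 and 30.5 TPM, below the 62.9 and 56.1 TPM of XX Rnf12+/-, a log2 difference of -1.15 (SE 0.27, adjusted p = 0.0024, edgeR). In X129OCast it was at 45.0 and 54.0 TPM and did not pass the test (log2 difference -0.12, SE 0.26, adjusted p = 0.729, edgeR). With XX Wildtype as the reference, where Foxd3 was at 58.1 and 34.9 TPM, the fall in XCastO129 was smaller (log2 difference -0.77) and still called.

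X129OCast and XCastO129 were then compared with each other within their own batch, where 1128 genes were called (7.24%). Of the 7 members 2 were called, both higher in X129OCast: Pou3f1 (log2 difference 1.17, SE 0.26, adjusted p = 0.0124) and Foxd3 (1.03, SE 0.27, adjusted p = 0.0261, edgeR). Otx2 lay near the threshold, with a log2 difference of 0.99 (SE 0.30, adjusted p = 0.0533, edgeR) and 0.0445 in DESeq2. Either call rested on few libraries: without X129OCast replicate 1 or replicate 2, Pou3f1 had adjusted p-values of 0.0806 and 0.0696 (edgeR), and Foxd3 had 0.0801 and 0.178. Foxd3 was also not called without XCastO129 replicate 1 (adjusted p = 0.166, edgeR). Without XCastO129 replicate 2, Otx2 and Sall2 were called higher in X129OCast, with log2 differences of 1.46 and 2.06.

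**Figure D2:**
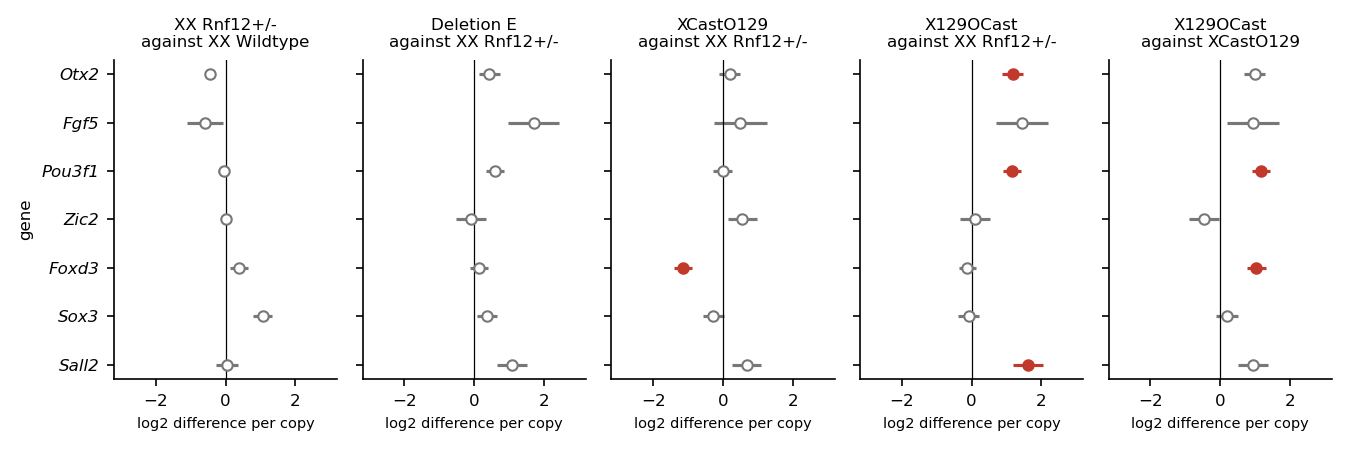
Log2 difference per gene copy with its SE for the 7 genes in 5 comparisons, each of 2 against 2 libraries, with filled red points for calls at an adjusted p under the threshold. Otx2, Pou3f1 and Sall2 were called in X129OCast against XX Rnf12+/-, Foxd3 in XCastO129 against XX Rnf12+/-, and Pou3f1 and Foxd3 between the XO lines.

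Other genes of the same transition were read from a list of 20 formative genes and a list of 12 naive genes. Both lists were chosen with earlier results of these data known. Of the formative genes, 11 rose and 1 fell in XCastO129, where 36% of all genes were called, and 12 rose and 2 fell in X129OCast, where 48.5% were, with median log2 differences of 0.46 and 0.77 against -0.01 and -0.04 over all genes tested. The genes with the largest rises in X129OCast were Pim2 (2.74), a kinase gene on the X chromosome given per copy, and those of the de novo DNA methyltransferases Dnmt3b (2.42) and Dnmt3a (2.38). In XCastO129 these 3 genes rose by 1.99, 1.77 and 1.38. Sall3, a relative of Sall2, fell in both, by 2.94 and 2.03 on the log2 scale.

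The naive genes moved the other way. In XCastO129 8 of 12 fell, where 36% of all genes were called, and in X129OCast 9 of 12 fell, where 48.5% were. None rose in either line. As for the formative list, loss of an X and the batch with its read type cannot be told apart here. Tbx3 (-1.78 in XCastO129 and -2.25 in X129OCast) and Prdm14 (-1.49 and -2.19) fell most, followed by Tcl1 (-1.14 and -1.70). Summed over the list, naive genes reached 4096 and 3862 TPM in XCastO129 and 2746 and 2848 TPM in X129OCast, below the 5033 to 5996 TPM of the XX and Deletion E libraries. Within the XO batch, 6 of the 12 naive genes were lower and 5 of the 20 formative genes higher in X129OCast than in XCastO129. None was called the opposite way, and 7.24% of all genes were called in this comparison.

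Before the deletion lines were compared, genes near each member were examined, since a member's level can move with its chromosome. Protein-coding genes within 5 Mb were used, with their deviation from the mean of the 20 libraries of the larger batch and their share of 129 reads. For Zic2, on distal chromosome 14 (chr14:122475435-122479852, plus strand), 3 libraries stood apart. In Deletion F replicate 2 and Deletion I-TEL replicate 2 the 23 neighbours had median deviations of -0.92 and -0.85 on the log2 scale and 99.2% and 100% of their allelic reads were 129 reads (medians over genes). All 7 allelic reads of Zic2 in the first and all 6 in the second were 129 reads (Wilson 95% lower limits 64.6% and 61.0%). In Deletion I replicate 1 the neighbours had a median deviation of 0.57 and a 129 share of 64.9%. In the other 17 libraries of the batch these values lay between -0.07 and 0.39 and between 45.3% and 52.9%.

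The pattern in Deletion I replicate 1 covered the whole of chromosome 14. In bins of 10 Mb the median deviation was 0.45 to 0.71 and the median 129 share 58.8% to 72.0%, and it held around Otx2 (chr14:48657677-48673819, minus strand; neighbours at 0.50 and 66.7%) and Sall2 (chr14:52311172-52328762, minus strand; neighbours at 0.47 and 65.6%). In Deletion F replicate 2 the bins from 70 to 110 Mb were raised by 0.51 to 0.76 with 24.2% to 35.2% of 129 reads, ahead of the lowered end that holds Zic2. In Deletion I-TEL replicate 2 the change was limited to the bins from 110 Mb on. Around Otx2 and Sall2 the neighbours in both libraries had deviations of -0.07 to -0.01. The copy number of chromosome 14 was not measured directly.

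**Figure D3:**
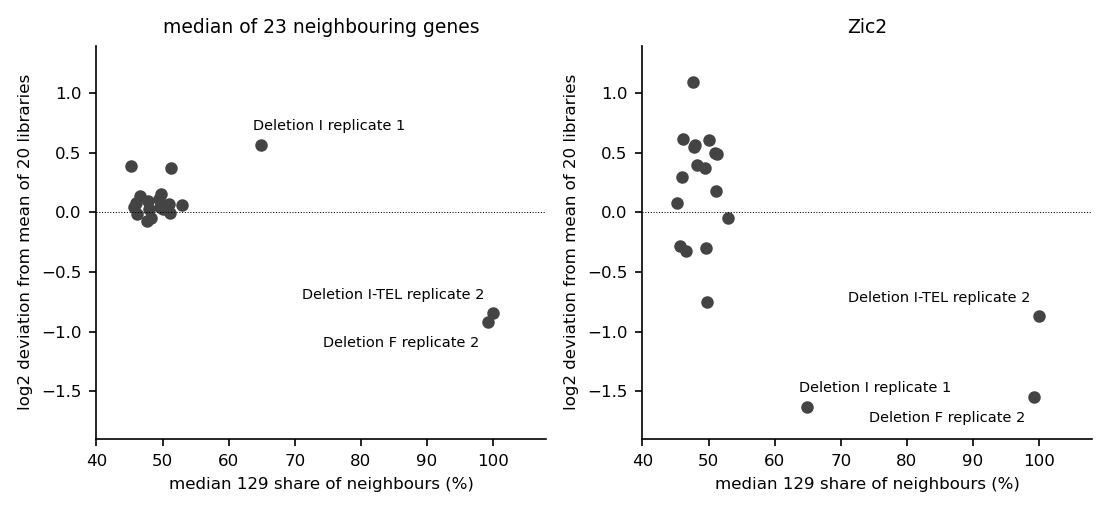
Median share of 129 reads (%) of the 23 genes within 5 Mb of Zic2 on the x axis, against the log2 deviation from the mean of the 20 libraries of the larger batch, for the median of these neighbours (left) and for Zic2 (right). Zic2 lay below the mean in the 3 named libraries, at -1.55, -0.87 and -1.63, although the neighbours were raised by 0.57 in Deletion I replicate 1.

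Among the 12 deletion lines of the larger batch, 5 of the 7 members differed in some line in an F test over the lines, as did 8080 of all 15585 genes (51.8%). Pou3f1 (edgeR, adjusted p = 0.000412) and Otx2 (edgeR, adjusted p = 0.00337) passed under all alternatives that were run. Sall2 (adjusted p = 0.0333), Sox3 (0.0417) and Zic2 (0.0475) passed narrowly, and Foxd3 (0.125) and Fgf5 (0.192, edgeR) did not. Leaving out any of 14 of the 20 libraries, all but Deletion A, AB, C-G, F replicates 1 and 2 and I replicate 2, took Zic2 over the threshold (adjusted p up to 0.115). For Sox3 10 such libraries did so (up to 0.174, without Deletion C replicate 1) and for Sall2 6 (up to 0.0929, without Deletion D replicate 1). Fgf5 was called without Deletion F replicate 1 (adjusted p = 0.0365) or replicate 2 (0.0473, edgeR). Without the 3 libraries that stood apart on chromosome 14, 3 members were called, and Sox3 and Sall2 were not (adjusted p = 0.0617 and 0.0599, edgeR). Without Deletions J and I-TEL, left out together after seeing the data since they share the second parental line, 3 members were called over the 10 other lines, Otx2 (adjusted p = 0.0121), Pou3f1 (0.0139) and Sall2 (0.0499, edgeR).

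Each line was then set against the mean of the other 11. Of 84 pairs of a member and a line, 12 were called, 7 higher and 5 lower, where 9.49% of all pairs of a gene and a line were called. They fell in Deletions AB, C, D, I-TEL and J. Of the members, Pou3f1 was called in 5 lines, Otx2 and Sox3 in 2 each, Zic2, Foxd3 and Sall2 in 1 each, and Fgf5 in none. With the 3 libraries that stood apart on chromosome 14 left out, all 12 pairs were called again, and Otx2 in Deletion C in addition (log2 difference -0.57, adjusted p = 0.0289, edgeR). With Deletions J and I-TEL left out, so that each line was set against lines of the first parental line alone, 5 of the other 9 pairs were called: Otx2 in Deletion AB (adjusted p = 0.0497), Pou3f1 (0.017) and Sox3 (0.0111) in Deletion C, and Pou3f1 (0.014) and Sall2 (0.0499, edgeR) in Deletion D. The 4 that were not called kept their direction, with adjusted p-values of 0.0532 to 0.123 (edgeR).

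**Figure D4:**
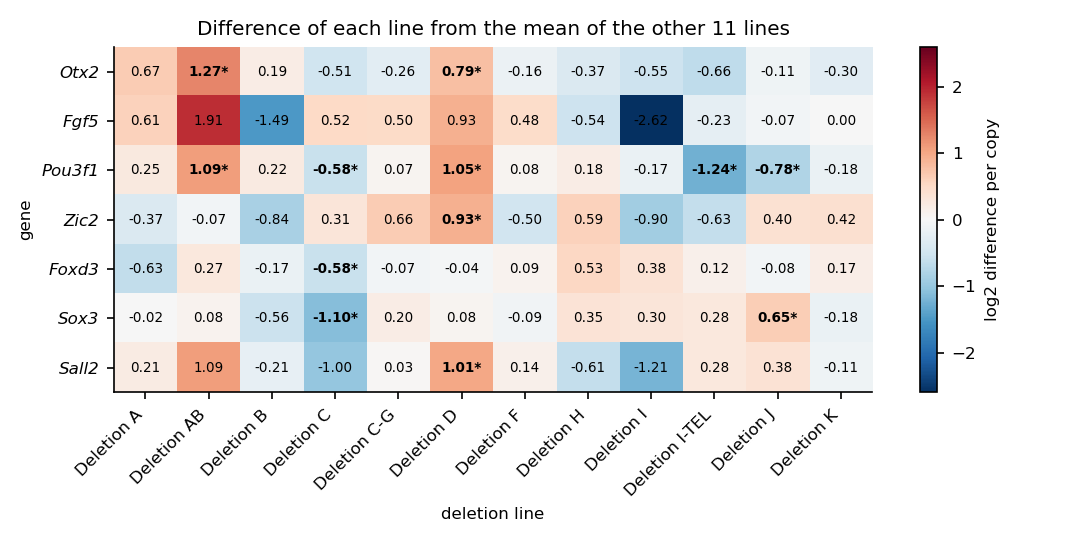
Log2 difference per gene copy of each of the 7 genes in each of the 12 deletion lines of the larger batch from the mean of the other 11 lines, with an asterisk for the 12 called pairs. Of the 7 pairs called higher, 6 were in Deletions AB and D and 1 was Sox3 in Deletion J, and the 5 called lower were in Deletions C, I-TEL and J.

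Deletion AB, a line of 1 library, had the highest Otx2 of all 30 libraries at 189 TPM, where the batch ranged from 45.3 TPM over a median of 74.4 TPM. Its log2 difference from the other lines was 1.27 (SE 0.27, adjusted p = 0.0193, edgeR). Pou3f1 was at 26.3 TPM in a range of 5.78 to 28.3 TPM, a log2 difference of 1.09 (SE 0.25, adjusted p = 0.027, edgeR). Fgf5 was at 25.5 TPM, the highest of the batch, and was not called (log2 difference 1.91, SE 0.70, adjusted p = 0.176, edgeR). Deletion A, whose segment AB contains, had Otx2 at 129 TPM, and Deletion B had 96.7 TPM; neither was called. In Deletion AB, 5 of 20 other formative genes rose and none fell, with Fgf15 (1.36), Grhl2 (1.07) and Dnmt3b (1.02) first, where 2% of all genes were called. Of the naive genes 3 of 12 fell, Tbx3 (-1.71) most, and none rose. The line has no second clone, so that its test rests on the spread in other lines.

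In Deletion D 4 members were called higher. Otx2 was at 142 and 131 TPM, above all other lines of the batch but AB, with a log2 difference of 0.79 (SE 0.21, adjusted p = 0.02, edgeR). Pou3f1 was at 28.3 and 21.9 TPM, a difference of 1.05 (SE 0.19, adjusted p = 0.00199, edgeR). Zic2 was at 126 and 93.6 TPM in a batch with a median of 70.5 TPM (0.93, SE 0.30, adjusted p = 0.0485, edgeR), and Sall2 at 12.19 and 8.68 TPM with a median of 5.60 TPM (1.01, SE 0.31, adjusted p = 0.041, edgeR). Replicate 1 was the higher library for each of these genes. Without it none of the 4 was called (adjusted p = 0.237, 0.107, 0.458 and 0.448 in the same order, edgeR), and without replicate 2 Pou3f1 alone was. Zic2 and Sall2 also lost their call without any of 10 and 5 libraries of other lines. Fgf5 was at 17.2 and 9.50 TPM and did not pass (0.93, SE 0.59, adjusted p = 0.318, edgeR).

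The wider lists in Deletion D had 5 of 20 formative genes higher and none lower, led by Pim2 (1.23), Dnmt3b (0.87), Lef1 (0.79) and Dnmt3a (0.75). Of the naive genes 7 of 12 were lower and 1 higher: Tfcp2l1 (-0.97), Tbx3 (-0.96) and Esrrb (-0.54) were among those that fell, and Dppa3 (0.63) rose. Over all genes tested, 13.1% were called in this line. Feeder markers summed to 251 and 245 TPM in Deletion D against a median of 123 TPM in the batch, and 3 of 10 were called higher; their part was not tested.

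Deletion C had 3 of the 7 members lower, where 36.1% of all genes were called. Sox3 was at 10.4 and 11.3 TPM, the lowest of all lines with 2 copies of the gene, a log2 difference of -1.10 (SE 0.27, adjusted p = 0.00337, edgeR). Without Deletion C replicate 1 the difference was -1.04 and not called (adjusted p = 0.0598, edgeR). Pou3f1 was at 10.5 and 7.44 TPM (-0.58, SE 0.22, adjusted p = 0.0481, edgeR) and Foxd3 at 21.8 and 26.4 TPM (-0.58, SE 0.22, adjusted p = 0.0475, edgeR). Both of these were near the threshold, and Pou3f1 lost its call without any of 15 and Foxd3 without any of 12 of the 20 libraries. Fgf5 (14.7 and 6.11 TPM) and Zic2 (85.7 and 63.7 TPM) were in the middle of their ranges.

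Deletion C was also the line where most other formative genes were called, 9 of 20 lower and 1 higher, at 36.1% of all genes called. Tcf15 (-1.57), Sox11 (-1.17) and Lef1 (-0.99) were among the lower ones and Sall3 (1.09) was the higher one. The naive genes were mixed: Nr0b1 (0.68), Tfcp2l1 (0.45) and Esrrb (0.39) were higher and Prdm14 (-1.02) lower.

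Pou3f1 was the only member called in Deletion I-TEL. It was at 6.49 and 5.78 TPM, the lowest 2 values of all 30 libraries, a log2 difference of -1.24 (SE 0.24, adjusted p = 0.00155, edgeR). The call was lost without replicate 2, which leaves a difference of -1.14 (adjusted p = 0.0626, edgeR). In Deletion J Pou3f1 was at 8.12 and 8.02 TPM (-0.78, SE 0.23, adjusted p = 0.0223, edgeR), and Sox3 at 32.1 and 34.9 TPM, the highest of the batch (0.65, SE 0.22, adjusted p = 0.0438, edgeR). Without Deletion J replicate 1 or replicate 2 neither was called, with adjusted p-values of 0.185 and 0.172 for Pou3f1 and 0.224 and 0.262 for Sox3 (edgeR); Sox3 was also not called without any of 9 libraries of other lines. Both lines descend from the second parental line, whose part in these differences cannot be told apart from that of the deletions.

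Other formative genes fell with Pou3f1 in these lines: 9 of 20 were lower and none higher in Deletion I-TEL, and 6 lower and 1 higher in Deletion J, at 16.1% and 20.4% of all genes called. Fgf15, a fibroblast growth factor gene and the one most like Pou3f1 over the batch, was called lower in both, at -1.19 in the first, as was Grhl2 (-1.06 and -0.83), an epithelial factor. The likeness of Fgf15 was measured over libraries that include these lines, so that its fall with Pou3f1 is not a separate result. Cdh2 rose in Deletion J (1.25). These lines also had the most feeder markers called higher, 4 and 6 of 10, with sums of 151 and 270 TPM in Deletion I-TEL and 285 and 205 TPM in Deletion J, and the part of feeder RNA was not tested. For Zic2 the I-TEL replicates had 50.6 and 34.9 TPM; the lower one was the library whose neighbours carried 129 reads only.

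In Deletion I no member was called, although Fgf5 and Zic2 had their lowest values there. Fgf5 was at 0.528 and 2.28 TPM, 4 and 17 counts, below all libraries of the batch except Deletion F replicate 2 (1.25 TPM); the log2 difference was -2.62 (SE 0.96, adjusted p = 0.0929, edgeR), and -1.99 (adjusted p = 0.421, edgeR) with the 3 libraries that stood apart on chromosome 14 left out, replicate 1 among them. Zic2 was at 18.9 TPM in replicate 1 and 50.6 TPM in replicate 2. Otx2 was at 46.7 and 71.0 TPM and Sall2 at 2.73 and 2.35 TPM. In replicate 1, Otx2, Sall2 and Zic2 deviated from the batch mean by -0.69, -0.87 and -1.63 on the log2 scale while their neighbours were raised by 0.47 to 0.57. Of the other formative genes 6 of 20 fell and 1 rose in Deletion I, and of the naive genes 7 of 12 rose and 1 fell, with Tfcp2l1 (1.00), Klf4 (0.94) and Tbx3 (0.86) up and Dppa3 (-0.91) down, where 8.94% of all genes were called.

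In Deletions A, B, C-G, F, H and K no member was called either. Deletion H had the highest Foxd3 of the batch, at 48.7 and 49.1 TPM against a median of 35.0 TPM (log2 difference 0.53, SE 0.20, adjusted p = 0.125, edgeR), and 5 of 12 naive genes were higher and none lower there, at 5.06% of all genes called. In Deletion A 4 of 12 naive genes were lower and none of the 20 formative genes was called, at 6.15% of all genes.

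Genes of the FGF pathway, which drives exit from the naive state, were read alongside Fgf5. Of 10 genes, 9 differed among the 12 deletion lines, as did 51.8% of all genes. Deletion C had 4 higher and 1 lower, with the receptor gene Fgfr2 (2.15) and the feedback inhibitor Spry4 (0.83) up and the ETS factor Etv4 (-1.14) down, where 36.1% of all genes were called, and Deletion H had 4 higher, Spry4 (0.86) and Spry2 (0.69) among them, where 5.06% were. Etv4 rose in XCastO129 (0.91) and X129OCast (1.52) against XX Rnf12+/-, where 4 rose and 1 fell, and 2 rose and 2 fell, at 36% and 48.5% of all genes called.

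Genes of later stages were low. Germ layer genes, 12 of 13 tested, summed to 30.7 to 114 TPM over all libraries, and 1 of the 12 differed among the lines. In XCastO129 1 rose and 1 fell, where 36% of all genes were called: T (Brachyury), a mesoderm factor (1.52), and Sox1, a neural factor (-2.53). In X129OCast 3 rose and 2 fell, where 48.5% were, with Sox1 (-2.14), the homeobox gene Evx1 (-1.70), T (1.16) and Nes (1.04) changed most. Deletion J had 4 of 12 higher, with Cer1 (3.65), Gsc (1.35) and T (1.06), at 20.4% of all genes called. Primitive endoderm markers summed to 66.6 to 137 TPM, and Deletion J again had the most called, 3 of 8 higher. Of the neural progenitor markers 4 of 8 were tested, and 1 rose and 1 fell in each XO line. Sox1, a relative of Sox3 that both lists hold, was the one that fell, and the ones that rose were the tubulin gene Tubb3 (0.48) in XCastO129 and the intermediate filament gene Nes (1.04) in X129OCast.

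Sox3, a single-exon gene on the X chromosome (chrX:60891366-60893430, minus strand), lies within Deletions D and C-G and has 1 copy there and in the XO lines. The allelic reads matched this: 0 of 10 were 129 reads in Deletions D and C-G together (Wilson 95% upper limit 27.8%), 0 of 50 in XCastO129 (upper limit 7.13%) and 39 of 39 in X129OCast (lower limit 91.0%). In the deletion lines with 2 copies, 42.4% of 177 reads were 129 reads (95% interval 35.3% to 49.7%). Deletion K, singled out after its value was seen, had 1 of 11 (9.09%, 1.62% to 37.7%), while its Sox3 neighbours had a median share of 49.3%. All intervals cover counting error only.

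In total level Sox3 was low where it had 1 copy, at 13.7 and 9.01 TPM in Deletion D and 12.6 TPM in Deletion C-G, where the batch had a median of 21.7 TPM. Per copy neither line was called different from the others, though with these SEs a moderate change could be missed. The log2 difference was 0.08 (SE 0.26, adjusted p = 0.877) in Deletion D and 0.20 (SE 0.35, adjusted p = 0.885, edgeR) in Deletion C-G. Without the correction for copies Deletion D was called lower (-0.83, adjusted p = 0.0435) and Deletion C-G was at -0.71 (adjusted p = 0.43, edgeR). Deletion C, with both copies, had 10.4 and 11.3 TPM and thus no more Sox3 RNA than the lines with 1.

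In the XO lines Sox3 was at 8.35 and 19.3 TPM (XCastO129) and 13.9 and 16.7 TPM (X129OCast). Per copy the difference from XX Rnf12+/- was -0.28 (SE 0.30, adjusted p = 0.494) and -0.09 (SE 0.30, adjusted p = 0.831, edgeR). The sign depended on the XX reference, since Sox3 was lower in XX Wildtype: against XX Wildtype the differences were 0.78 (adjusted p = 0.0522) and 0.97 (adjusted p = 0.0129, edgeR), and Deletion E was also called higher (1.43, adjusted p = 0.00638, edgeR). Sox3 levels in the XX and Deletion E batch spanned 13.9 to 53.3 TPM.

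The spread between the replicate libraries of a line differed strongly among members. Over the 13 groups with 2 libraries, the within-line SD of log2 levels was 1.09 for Fgf5, 0.54 for Zic2, 0.53 for Sall2, 0.36 for Otx2, 0.35 for Sox3 and 0.31 for both Pou3f1 and Foxd3, where the median protein-coding gene had 0.18. Fgf5 lay at the 99.96th percentile of protein-coding genes, Zic2 and Sall2 at the 94.5th and 93.8th. Without the 3 lines that hold a library set apart on chromosome 14, the SD over the 10 other groups was 0.84 for Fgf5, 0.35 for Zic2 and 0.54 for Sall2, and Zic2 lay at the 82.6th percentile. The coefficient of biological variation of the edgeR fit was 56.1% for Fgf5 and 11.4% for the median gene, so that a change in Fgf5 had to be large to pass the test.

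The largest gaps lay in 3 groups. In Deletion F, Fgf5 was at 18.5 TPM in replicate 1 and 1.25 TPM in replicate 2, Otx2 at 101 and 46.3, Pou3f1 at 18.8 and 8.02, Zic2 at 66.6 and 20.6, and Sall2 at 8.11 and 3.79 TPM. Only Sox3 went the other way, at 16.7 and 24.0 TPM. The other formative genes summed to 3264 and 2195 TPM in these libraries and the naive genes to 5139 and 5340 TPM. XCastO129 had the same members apart with replicate 2 the higher library, except Pou3f1, and in Deletion I replicate 2 was higher for Fgf5, Otx2 and Zic2. For Zic2 the gap in Deletion F, 1.73 on the log2 scale, went with a gap in the neighbours, which were at -0.92 in replicate 2.

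**Figure D5:**
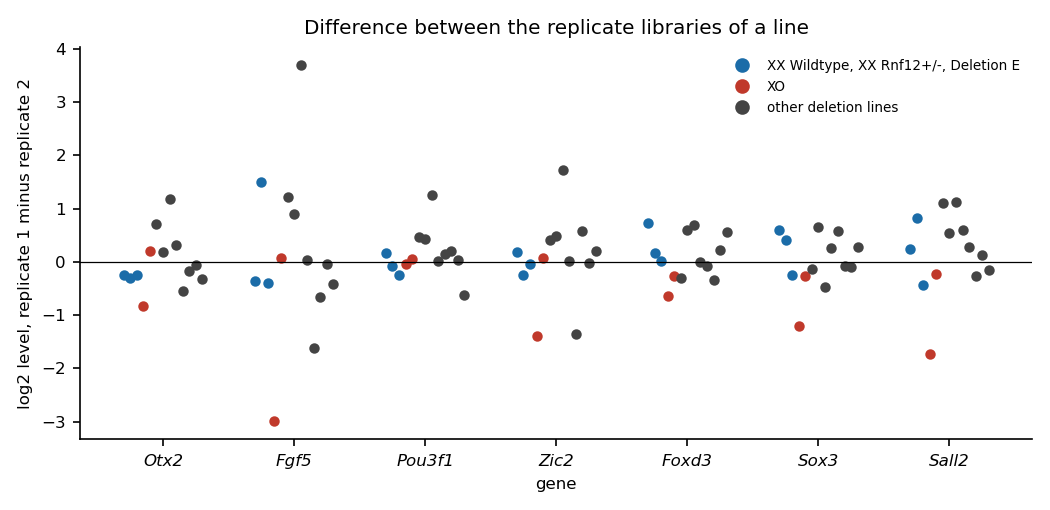
Log2 level of replicate 1 minus that of replicate 2 for each gene in each of the 13 groups with 2 libraries. Fgf5 ranged from -2.99 (XCastO129) to 3.70 (Deletion F), whereas the other genes ranged from -1.73 to 1.73.

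Over the 20 libraries of the larger batch some members varied together, given here as a description since libraries of a line share a clone's history. Pearson's r of log2 levels per copy was 0.80 for Otx2 and Pou3f1, 0.75 for Otx2 and Sall2, 0.71 for Fgf5 and Zic2, 0.68 for Otx2 and Fgf5 and 0.67 for Fgf5 and Sall2. The other pairs of Otx2, Pou3f1, Sall2, Fgf5 and Zic2 had r of 0.34 (Zic2 and Sall2) to 0.44 (Pou3f1 and Sall2). Foxd3 and Sox3 had r = 0.52 with each other. Foxd3 had r between -0.11 and 0.16 with the other members, and Sox3 between -0.23 and 0.30. Many genes outside the list were closer: of 13378 genes, Sox3 came 842nd in the order for Foxd3. In the order for Otx2, Pou3f1 came 28th and Fgf5 217th. Over the 17 libraries left without those set apart on chromosome 14, r was 0.83 for Otx2 and Pou3f1, 0.77 for Otx2 and Sall2 and 0.63 for Otx2 and Fgf5, but 0.43 for Fgf5 and Zic2. There Zic2 had r of 0.05 with Otx2, 0.24 with Pou3f1 and 0.26 with Sall2. Pou3f1 had 0.55 with Sall2 and 0.54 with Fgf5.

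The genes with the most similar pattern were named for each member from 13378 other protein-coding genes. For Otx2 they were Irf1 (r = 0.92), Bpnt1 and Bcl2l11 (0.86 each), for Pou3f1 Fgf15, Vapb and Gusb (0.91 each), and for Sall2 Cxcl12 (0.89), Mast1 and Ddr1 (0.88 each). For Fgf5 they were Meox1 (0.90), Sema6a (0.87) and Unc5b (0.86), and for Zic2 its divergent neighbour Zic5 (0.87), Shf (0.80) and Ccl27a (0.78). For Foxd3 Shq1, Kdm2b and Isg20l2 (0.84 each) came first, and for Sox3 Sox13 (0.89), Tk1 and Tfdp1 (0.88 each). Apart from Zic5 none of these genes lies on the same chromosome as its member, and Fgf5 was itself the ninth gene in the order for Zic2. Without the 3 libraries set apart on chromosome 14 the first genes were the same for Otx2 (Irf1, 0.91) and Pou3f1 (Fgf15, 0.93), and for Zic2 they were Shf (0.81), Ptma (0.77) and Ddx39b (0.75), with Zic5 no longer among the first 3.

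Allelic reads showed a lasting strain difference for Foxd3 and Sall2. Of 2298 allelic reads of Foxd3 in the 30 libraries, 74.4% were 129 reads (95% interval 72.6% to 76.2%), and the share was above 50% in all 17 conditions, from 67.3% to 90.0%. Its neighbours had a median share of 47.7% to 56.0% in these libraries. For Sall2 62.8% of 1070 reads were 129 reads (59.9% to 65.6%), above 50% in 16 of 17 conditions. The exception, singled out after its value was seen, was Deletion J, with 14 of 48 (29.2%, 95% interval 18.2% to 43.2%), while its Sall2 neighbours had 49.9% and 49.2% in the replicates. Fgf5 leaned to the Cast allele with 39.9% of 1361 reads (37.3% to 42.5%). Otx2 (45.8% of 951), Zic2 (43.3% of 381) and Pou3f1 (42.0% of 212) had few reads per condition. Reads were aligned to a genome with the strain differences masked, and whether mapping favours an allele at single sites was not tested.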

How the data were processed

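The authors deposited 1 table of raw counts per gene for all 30 libraries, with further columns for reads assigned to the 129 and the Cast allele. Libraries were poly(A)-selected and stranded. Per the labels and the submitters' processing notes, reads were trimmed with Trim Galore 0.6.7, aligned with HISAT2 2.2.1 to mm10 with strain differences masked, assigned to alleles with SNPsplit 0.3.4 and counted by strand over exons of Ensembl 98 with featureCounts 2.0.6, per the study's methods; the notes also list HTSeq 0.12.4.

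Gene names, positions and exon lengths (for TPM) came from GENCODE M21. The members and gene lists (formative, naive, FGF pathway, germ layer, and markers of embryonic stem cells, feeder fibroblasts, primitive endoderm and neural progenitors) were chosen with earlier results of these data known. Counts were tested in R 4.3.3 with edgeR 4.0.16 (glmQLFit and glmQLFTest), with TMM factors from autosomal genes, the log copy number as an offset and genes with a mean of at least 10 counts. Each comparison used a fit of all 30 libraries with 1 term per condition, except XX Rnf12+/- against XX Wildtype, which used its 4 libraries and also required a log2 fold change beyond 1. p-values were adjusted by the Benjamini-Hochberg procedure over the 15585 genes tested. Replicates of the deletion lines are separate clones. Whether the 2 libraries of an XX group come from separate clones is not given by the labels. The p-values measure the spread between replicate libraries, shared over the groups of a fit, and not a spread between separately made XX lines. Lines with 1 library borrow the spread of the others.

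Allele shares have 95% Wilson intervals. Neighbours are tested protein-coding genes within 5 Mb, with at least 20 allelic reads for a share. Named for each member were the 3 genes with the highest correlation of log2 CPM (prior count 2), and for each list at most the 4 called genes with the largest change. Alternatives were DESeq2 1.42.0, other scaling factors, no filter, a TPM filter, no copy offset, other references or sets of libraries, a replicate block, and each library left out. Scripts were tested on simulated counts.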

Additional observations from a re-analysis of the deposited data

Results flagged for a closer look

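Both XO lines had lost a whole X chromosome. Of the 7 genes, 2 differed between the lines by a direct test, where 7.24% of all genes were called. Pou3f1 was 1.17 higher in X129OCast than in XCastO129 on the log2 scale (higher in both X129OCast libraries than in both XCastO129 libraries, adjusted p = 0.0124, edgeR), and Foxd3 was 1.03 higher with the same separation of the libraries (adjusted p = 0.0261, edgeR). Each call was lost without either X129OCast library. The lines also differ in Rnf12, and these differences cannot be told apart.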

How the results depend on the processing

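Among single-gene values under alternatives, 919 kept their direction and their side of the threshold, 115 kept their direction but lost the call, 29 gained one and 30 changed sign. None of those that changed sign had been called. Without the filter on low counts, more members were called: 3 in XCastO129, 6 in X129OCast against XCastO129 and 3 in Deletion E. Pairs of a gene and a line numbered 38 in place of 12, and the cause was not tested. For the alternatives other than DESeq2, the share of all genes called was not counted. Without the copy offset 2 members were called in XCastO129, and Sox3 was at -0.71 in Deletion C-G and -0.83 in Deletion D, since its single copy was then not corrected for. With the compared libraries fitted alone, 1 member was called between the XO lines. With XX Wildtype as the reference, 1 was called in Deletion E, and signs turned for Otx2 (-0.25), Fgf5 (-0.092) and Sox3 (0.78) in XCastO129, Foxd3 (0.26) and Sox3 (0.97) in X129OCast, and Otx2 (-0.0098) in Deletion E. With TMM factors from all genes Pou3f1 in XCastO129 was at 0.0076. DESeq2 called 104 genes in XX Rnf12+/- and 114 in Deletion E, where edgeR called 1 and 21. With 3 libraries that stood apart on chromosome 14 left out together, chosen after seeing the data, 3 members differed among the lines. With Deletions J and I-TEL left out together, also chosen after seeing the data, 3 differed and 5 pairs were called, of 70 in place of 84.

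Replicate numbers were shared between groups, the labels do not say that a number pairs libraries, and 2 libraries per group cannot settle it: deviations of same-numbered libraries had correlations of -0.27 (XCastO129) and -0.22 (X129OCast) with XX Rnf12+/-, 0.11 between the XO lines, 0.68 between the XX groups, -0.26 for Deletion E, and -0.185 to 0.191 over 28 pairs of deletion lines. With a replicate block on the libraries compared, 0 members were called in XCastO129, 4 in X129OCast, 1 between the XO lines, 1 in XX Rnf12+/- (Sox3, log2 difference 1.07, adjusted p = 0.000693, edgeR), 0 in Deletion E, 6 among the lines and 12 pairs of a gene and a line. With the numbers crossed, added after seeing the data, the counts were 1, 4 and 0 in XCastO129, X129OCast and Deletion E.

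With 1 library left out, the number of members called was 1 to 2 in XCastO129, 2 to 3 in X129OCast, 0 to 4 between the XO lines, 0 to 0 in XX Rnf12+/- and in Deletion E, 2 to 6 among the lines, and 6 to 16 pairs of a gene and a line. Differences that were not called turned sign within these ranges. In XCastO129 they were -0.28 to 0.54 for Otx2, -1.71 to 1.45 for Fgf5, -0.044 to 0.026 for Pou3f1 (0.011 without XCastO129 replicate 1), -0.31 to 1.09 for Zic2, -1.01 to 0.20 for Sox3 and -0.44 to 1.30 for Sall2, with the lowest values of all but Pou3f1 without XCastO129 replicate 2. In X129OCast they were -0.020 to 0.23 for Zic2, -0.25 to 0.0052 for Foxd3 and -0.27 to 0.13 for Sox3 (0.040 without X129OCast replicate 1). Between the XO lines they were -0.99 to 0.41 for Zic2 and -0.29 to 0.92 for Sox3. In XX Rnf12+/- against XX Wildtype they were -0.13 to 0.027 for Pou3f1, -0.11 to 0.13 for Zic2 and -0.43 to 0.40 for Sall2. Zic2 in Deletion E ranged from -0.22 to 0.029, and Sox3 in Deletion D from -0.29 to 0.37.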

Other observations

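In Deletion F replicate 2, the bins of chromosome 14 from 70 to 110 Mb had 24.2% to 35.2% of 129 reads, and the last bin, from 120 Mb, had 99.7%. Deletion F replicate 1 was not set apart in these bins.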
